A study of Homo sapiens with 8 samples.

Results

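Fibronectin and the glycoproteins of elastic fibres were followed by ribosome profiling, in which the short mRNA pieces shielded by ribosomes (footprints) are sequenced. The set was chosen by gene name, with earlier results of these data known. It held 10 genes: FN1, FBN1, FBN2, FBLN1, FBLN2, FBLN5, EFEMP1, EFEMP2, ELN and MFAP5. Of these, 7 were listed among the 11079 genes measured in cells given 4-hydroxytamoxifen (4-OHT) and 8 among the 11546 genes measured in cells without it. Of the 11940 genes listed in either condition, 10685 were listed in both, among them 7 of the set. EFEMP2 and MFAP5 were listed in neither condition.

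The cells were BJ, an established line of human skin fibroblasts, and all of them were BJ-HRAS cells by their labels. Oncogenic HRAS, a small GTPase of growth signalling, is known to cause senescence in fibroblasts, and 4-OHT serves as the inducer of proteins carrying a mutant oestrogen receptor domain. The 4 groups were SNORA13 knockout (KO) cells with 100 nM 4-OHT for 7 days, wild-type (WT) cells with the same treatment, KO cells without 4-OHT and WT cells without 4-OHT. Each group held 1 library of each of 2 clones, clones 66 and 69 for KO and clones 15 and 54 for WT, so a genotype cannot be told apart from the clones that carry it. SNORA13 is a small nucleolar RNA of the class that guides pseudouridylation of RNA. It was not listed under that name in either condition, nor was HRAS, so neither the knockout nor the induction of HRAS was checked on these values.

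Fibronectin, encoded by FN1, is secreted as a dimer and pulled into fibrils by cell-surface integrins, and these fibrils act as a scaffold on which fibrillins and collagens are laid down. Fibrillins (FBN1, FBN2) polymerise into microfibrils, and elastin (ELN), a protein of arterial wall, lung and skin, is deposited on them and crosslinked. Fibulins (FBLN1, FBLN2, FBLN5, EFEMP1, EFEMP2) and the microfibril-associated glycoprotein MFAP5 bind these polymers, and several of them bring elastin and its crosslinking enzyme together.

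The tables name no unit, and from their values they were taken as RPKM, footprint reads scaled to the depth of the library and to the length of the whole gene span in kilobases, introns included. The libraries held between 190789 reads (KO clone 66 with 4-OHT) and 1709524 reads (KO clone 69 without 4-OHT), as recovered from the values. In the shallowest library, KO clone 66 with 4-OHT, 3169 of 11079 genes were at 0. Fibroblast markers were all listed, 8 of 8. Together they took between 2.39% and 2.85% of the reads with 4-OHT and between 5.89% and 7.63% without it. Smooth muscle markers, of which 4 of 5 were listed, took between 0.000203% and 0.00135% with 4-OHT and between 0.00472% and 0.00905% without it, and MYH11 was at 0 in 6 of 8 libraries. The 1 keratinocyte marker listed, of 4, was KRT10, which took between 0.00102% and 0.00458% with 4-OHT and between 0% and 0.000379% without it. Leukocyte markers (1 of 5, CD14, listed with 4-OHT and 3 of 5 without) took between 0.00346% and 0.00993% with 4-OHT and between 0.00317% and 0.00426% without it. Endothelial (1 of 5 listed) and epithelial markers (0 of 3 with 4-OHT and 1 of 3 without) took at most 0.000379% of a library, and melanocyte markers were not listed. The fibroblast and smooth muscle shares were thus lower and the share of KRT10 higher in every library with 4-OHT. These shares moved with the results on 4-OHT, and their part in them was not tested. All samples were clones of 1 fibroblast line, and shares of marker footprints do not count cells of a type. In such bulk libraries fewer cells of a type and less RNA per cell cannot be told apart, and RNA abundance was not analysed here.

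With 4-OHT, fibronectin, both fibrillins, fibulin-2 and EFEMP1 had lower footprint levels in both genotypes. Fibulin-1 was called lower in KO clones, a call that was lost with the clone as a block (adjusted p = 0.0511), and fibulin-5 was not called in either genotype. On the log2(RPKM + 1) scale FN1 showed the largest change of the set in both genotypes. By limma-voom on recovered reads EFEMP1 had the larger log2 change, -3.22 in KO clones and -3.95 in WT clones, against -2.97 and -3.77 for FN1, with few EFEMP1 reads with 4-OHT. Footprints of the listed members together took 0.368% (clone 66) and 0.345% (clone 69) of the reads of KO libraries with 4-OHT, against 1.73% and 1.54% of those without it. In WT libraries they took 0.322% (clone 15) and 0.297% (clone 54) with 4-OHT, against 1.74% and 1.85% without it. The libraries with 4-OHT were all below those without it. FN1 alone made up 25.1% and 26.8% of these reads in KO libraries with 4-OHT, against 45.7% and 44.1% without it, and 23.8% and 25.5% in WT libraries with 4-OHT, against 59.0% and 57.3% without it. The members other than FN1 took 0.264% ± 0.0160 of reads in KO clones with 4-OHT and 0.900% ± 0.0539 without it (SD, n = 2). In WT clones they took 0.233% ± 0.0168 with 4-OHT and 0.751% ± 0.0533 without it. These sums were described and not tested, since the members were chosen with earlier results of these data known.

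**Figure D1:**
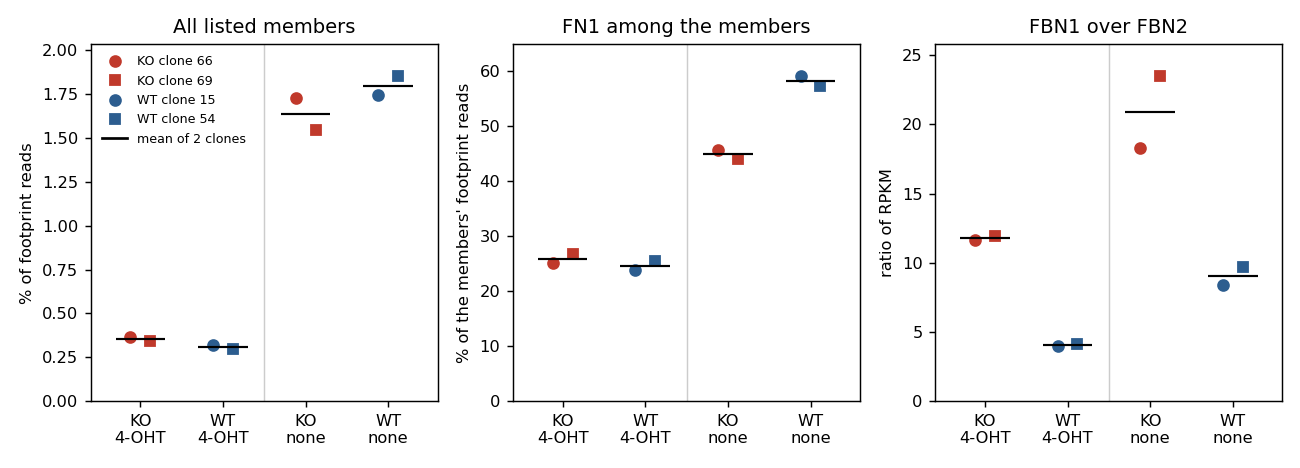
Left, percent of all footprint reads in each library that fell on the listed members; middle, percent of those reads that fell on FN1; right, the ratio of FBN1 to FBN2 RPKM. Each point is 1 clone and each bar the mean of 2 clones; shares with 4-OHT lie between 0.297% and 0.368%, and those without it between 1.54% and 1.85%.

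FN1 (ENSG00000115414.19; GRCh38 chromosome 2, 215360865 to 215436068) encodes fibronectin. In KO clones it had 12.3 RPKM in clone 66 and 12.3 in clone 69 with 4-OHT, against 105 and 90.5 without it. The WT clones had 10.2 RPKM of FN1 in clone 15 and 10.1 in clone 54 with 4-OHT, against 137 and 141 without it. The libraries with 4-OHT did not overlap those without it in either genotype, and the KO and WT libraries did not overlap in either condition. The means fell 7.95-fold with 4-OHT in KO clones and 13.7-fold in WT clones. On the scale used for testing, log2(RPKM + 1), which shrinks changes of low values, FN1 fell by 2.89 ± 0.16 (SE) in KO clones (adjusted p = 0.000117) and by 3.65 ± 0.16 in WT clones (adjusted p = 6.69e-05). These p-values come from limma-trend with Benjamini-Hochberg adjustment over 8774 genes, as do those below unless another test is named, and a gene was called at an adjusted p under 0.05.

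The bases before the start of transcription are shown for FN1, which had the largest change on the log2(RPKM + 1) scale, and for FBLN1, whose mean RPKM differed only 1.79-fold in KO clones and 1.41-fold in WT clones. Both are the 250 bases upstream of the RefSeq start in GRCh38.p14, 5′ to 3′ on the strand of the gene, at chr2:215436069-215436318 (minus strand) for FN1 and chr22:45502633-45502882 (plus strand) for FBLN1. Capitals mark the motifs TGACGTCA (the cAMP response element), CCAAT and TATAA, searched on both strands.
FN1: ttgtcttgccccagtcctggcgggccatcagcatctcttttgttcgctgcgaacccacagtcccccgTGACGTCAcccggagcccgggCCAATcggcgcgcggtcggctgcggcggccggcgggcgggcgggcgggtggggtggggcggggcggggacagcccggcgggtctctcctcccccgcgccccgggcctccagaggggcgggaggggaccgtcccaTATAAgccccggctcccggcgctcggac
FBLN1: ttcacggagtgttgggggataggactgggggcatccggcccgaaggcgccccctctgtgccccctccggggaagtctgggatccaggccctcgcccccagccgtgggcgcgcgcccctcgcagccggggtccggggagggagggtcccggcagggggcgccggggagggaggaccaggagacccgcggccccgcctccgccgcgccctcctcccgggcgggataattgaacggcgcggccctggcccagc
The FN1 window held 1 TGACGTCA, with its last base 176 bases before the start, 1 CCAAT at 158 and 1 TATAA at 24. The FBLN1 window held none of the 3. Windows were found for 7 of the 10 members, 9 windows in all, and TGACGTCA occurred in FN1 only. CCAAT also occurred 1 time in FBN2 and 1 time in each FBLN5 window, and 1 FBLN5 window held 2 overlapping TATAA. The windows of FBN1, FBLN2 and EFEMP2 held none of the 3. FBN1, FBN2 and FBLN2 were called lower with 4-OHT in both genotypes, FBLN5 in neither, and EFEMP2 was not listed. Whether these motifs go with the size of the change was not tested. TGACGTCA occurred in 1.65% of all 35116 windows of this length, CCAAT in 32% and TATAA in 18.9%. The GC-rich motif GGGCGG, which 42.6% of all windows held, occurred 6 times in FN1, with some copies overlapping each other, and 1 time in FBLN1. The AP-1 motif TGANTCA, which does not overlap the others, occurred in 6.57% of all windows and in none of the 9. A match of letters is a description and shows no binding.

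Fibrillin-1, the product of FBN1 (ENSG00000166147.13; chromosome 15, 48408313 to 48645709), is the main fibrillin of adult microfibrils and is mutated in Marfan syndrome. In KO clones FBN1 had 3.20 RPKM in clone 66 and 3.001 in clone 69 with 4-OHT, against 21.8 and 19.2 without it. In WT clones it had 2.12 RPKM in clone 15 and 2.05 in clone 54 with 4-OHT, against 16.9 and 16.1 without it. All libraries with 4-OHT were below all libraries without it, and the KO libraries were above the WT libraries in both conditions. FBN1 fell by 2.39 ± 0.17 (SE) on the log2 scale in KO clones (adjusted p = 0.000254) and fell by 2.50 ± 0.17 in WT clones (adjusted p = 0.000303), which was 6.62-fold in KO and 7.91-fold in WT clones by mean RPKM.

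Fibrillin-2, the product of FBN2 (ENSG00000138829.12; chromosome 5, 128257909 to 128538245), is best known from developing tissue. In KO clones FBN2 had 0.274 RPKM in clone 66 and 0.251 in clone 69 with 4-OHT, from 15 and 69 reads, against 1.19 and 0.821 without it. The WT level was 0.535 RPKM in clone 15 and 0.495 in clone 54 with 4-OHT, against 2.001 and 1.67 without it. The 4-OHT libraries were again the lower ones in each genotype, while for this fibrillin the KO libraries were below the WT libraries in both conditions. FBN2 fell by 0.66 ± 0.16 (SE) in KO clones (adjusted p = 0.0243) and by 0.90 ± 0.16 in WT clones (adjusted p = 0.00865). By mean RPKM the falls were 3.82-fold in KO and 3.56-fold in WT clones. The KO call missed the threshold without the KO library of clone 66 with 4-OHT (adjusted p = 0.0543), without that of clone 66 lacking 4-OHT (0.137) and with the 4 KO libraries alone in the fit (0.0543). The WT call missed it without clone 54 with 4-OHT (0.0651) and without clone 15 lacking 4-OHT (0.0556).

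The ratio of FBN1 to FBN2 RPKM, a pair chosen after the values were seen and given without a test, was 11.7 (clone 66) and 11.9 (clone 69) in KO clones with 4-OHT and 18.3 and 23.5 in KO clones without it. It was 3.97 (clone 15) and 4.14 (clone 54) in WT clones with 4-OHT and 8.43 and 9.68 in WT clones without it. The KO ratios were above the WT ratios in both conditions, and the ratios with 4-OHT were below those without it in both genotypes. Because both genes keep their own span in every library, the order of these ratios does not depend on gene length.

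Among the fibulins, FBLN1 (ENSG00000077942.19; chromosome 22, 45502883 to 45601135) encodes fibulin-1, which binds fibronectin and lies in the core of elastic fibres. In KO clones it had 11.6 RPKM in clone 66 and 11.6 in clone 69 with 4-OHT, against 21.3 and 20.5 without it. In WT clones FBLN1 had 11.7 RPKM in clone 15 and 11.2 in clone 54 with 4-OHT, against 13.5 and 18.9 without it. The 4 libraries with 4-OHT lay close together, and the spread lay in the WT clones without it. The log2 change was -0.79 ± 0.20 (SE) in KO clones (adjusted p = 0.0249) and -0.45 ± 0.20 in WT clones (adjusted p = 0.159). With the clone as a block the KO value missed the threshold (adjusted p = 0.0511), as it did with the KO libraries alone (0.0551) and without clone 66 with 4-OHT (0.0638), clone 66 lacking it (0.113) or clone 69 lacking it (0.0805). The WT value passed with median-ratio scaling (0.0463), with limma-voom on recovered reads (0.0206) and with limma-voom and the clone as a block (0.00953).

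FBLN2 (ENSG00000163520.14; chromosome 3, 13549125 to 13638404) encodes fibulin-2, which binds both fibronectin and fibrillin-1. In KO clones it had 6.45 RPKM in clone 66 and 4.86 in clone 69 with 4-OHT, against 15.1 in each clone without it. Among WT clones FBLN2 had 5.09 RPKM in clone 15 and 3.42 in clone 54 with 4-OHT, against 10.9 and 14.3 without it. The groups with and without 4-OHT did not overlap. FBLN2 fell by 1.29 ± 0.24 (SE) in KO clones (adjusted p = 0.0081) and by 1.38 ± 0.24 in WT clones (adjusted p = 0.00722). The WT call missed the threshold without clone 54 with 4-OHT (0.0543) and without clone 54 lacking it (0.0637).

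FBLN5 (ENSG00000140092.14; chromosome 14, 91869411 to 91947694) encodes fibulin-5, which binds elastin and integrins and is required for elastic fibre assembly in mice. In KO clones it had 2.35 RPKM in clone 66 and 1.92 in clone 69 with 4-OHT, against 3.36 and 3.74 without it. In WT clones it had 2.30 RPKM in clone 15 and 2.33 in clone 54 with 4-OHT, against 2.45 and 4.22 without it. The libraries with 4-OHT were the lower ones, but WT clone 15 without 4-OHT lay only 1.07-fold above the same clone with it. The log2 changes of -0.54 (95% interval -1.11 to 0.03) in KO clones and -0.36 (-0.92 to 0.21) in WT clones missed the threshold (adjusted p = 0.139 in KO and 0.346 in WT clones). In KO clones the value passed with median-ratio scaling (0.0481), with limma-voom (0.0196) and with limma-voom and the clone as a block (0.0107).

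EFEMP1 (ENSG00000115380.20; chromosome 2, 55865967 to 55923782) encodes fibulin-3, which is mutated in an inherited macular dystrophy. In KO clones it had 0.270 RPKM in clone 66 and 0.298 in clone 69 with 4-OHT, from 3 and 17 reads, against 3.03 and 2.79 without it, from 158 and 276 reads. The WT clones had 0.163 RPKM in clone 15 and 0.0292 in clone 54 with 4-OHT, from 16 and 1 reads, against 1.42 and 2.15 without it, from 108 and 98 reads. The groups with and without 4-OHT were far apart, but the level with 4-OHT rests on few reads. EFEMP1 fell by 1.61 ± 0.19 (SE) in KO clones (adjusted p = 0.00152) and by 1.34 ± 0.19 in WT clones (adjusted p = 0.00349). By RPKM the fall was 11.2-fold in KO clone 66, 9.39-fold in KO clone 69 and 8.69-fold in WT clone 15. In WT clone 54 the 1 read with 4-OHT against 98 reads without it, set against the depth of each library, gave a ratio of 73-fold with a 95% interval of 12.8 to 2912, which covers counting error only.

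ELN (ENSG00000049540.17; chromosome 7, 74028173 to 74069907), the elastin gene, was listed only without 4-OHT. It was at 0 RPKM in both KO clones and in WT clone 15, and at 0.030 RPKM, which is 1 read, in WT clone 54. The value that 3 reads would give lay at 0.0797 RPKM in KO clone 66, 0.042 in KO clone 69, 0.0544 in WT clone 15 and 0.091 in WT clone 54, so elastin translation was not detectable above that floor. ELN did not pass the filter of 10 reads in 2 libraries and was not tested. The 7 other listed members passed it in both conditions.

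**Figure D2:**
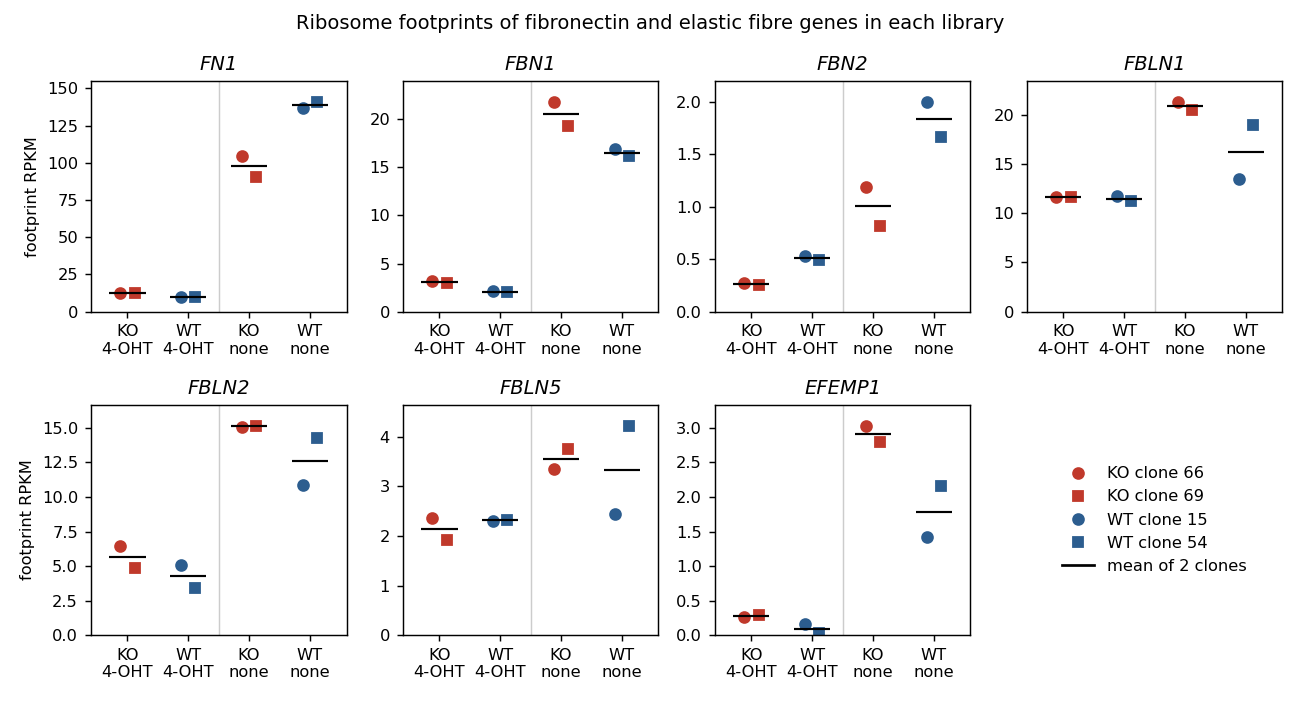
Footprint RPKM of each tested member (vertical axis, linear from 0) in the 4 groups, 1 point per clone and a bar for the mean of 2 clones. FN1 lies between 10.1 and 12.3 RPKM in the 4 libraries with 4-OHT and between 90.5 and 141 in the 4 without it, while FBLN1 with 4-OHT lies between 11.2 and 11.7 in both genotypes.

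In KO clones 6 of the 7 tested members were called lower with 4-OHT and 0 higher, where 10.6% of the 8774 tested genes were called lower and 17.1% higher. With the clone as a block 5 of 7 were called lower in KO clones, without FBLN1, where 773 of 8774 genes were lower. In WT clones 5 of 7 were called lower and 0 higher without the block, where 8.06% of the genes were called lower and 13.5% higher. The block fit called the same number of members lower in WT clones, where 577 of 8774 genes were lower. By limma-voom 7 of 7 members were lower in KO clones, against 10.9% of all genes, and 6 of 7 in WT clones, against 12.8%. All 7 tested members had libraries with 4-OHT below those without it in both genotypes, which was so for 25.8% of the tested genes in KO clones and for 27.5% in WT clones. The median log2 change of the 7 members was -1.29 in KO clones and -1.34 in WT clones, and that of all tested genes was 0.05 in KO and 0.06 in WT clones. Scaling by median ratios put the median of all genes at -0.04 in KO clones and -0.02 in WT clones, and limma-voom put it at 0.22 in both. All 7 members kept a negative sign in both genotypes under each of these. The members were chosen with earlier results of these data known, so their counts beside the background are a description and no test. Without clone 66, either with or lacking 4-OHT, 4 of 7 members were called in KO clones. Without clone 54 with 4-OHT, 3 of 7 members were called in WT clones, FN1, FBN1 and EFEMP1. Leaving out a library left 1 in its group, so the shares of all genes given above do not apply to those counts. Conditions were deposited separately, so the treatment and any batch that goes with it cannot be told apart.

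**Figure D3:**
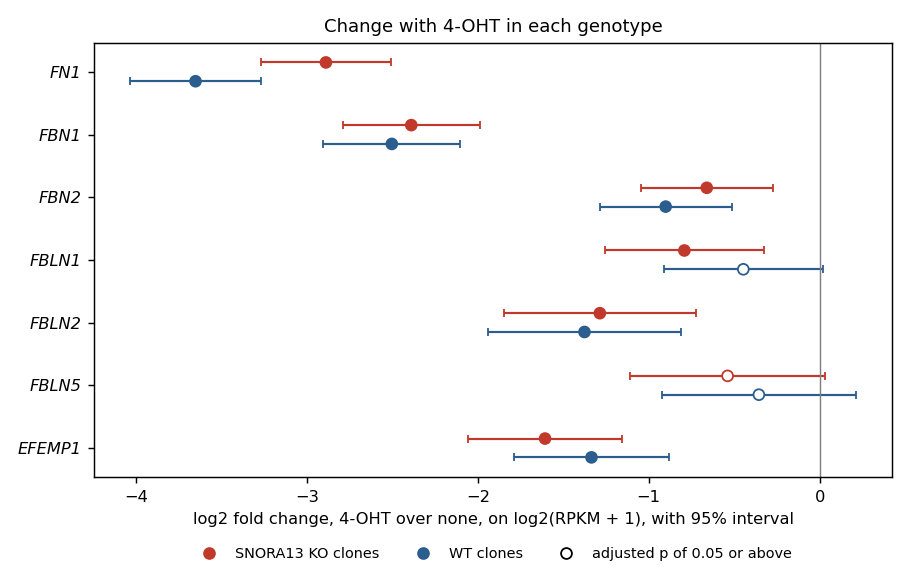
Log2 fold change with 4-OHT over none for each tested member, on log2(RPKM + 1), with 95% intervals from limma-trend, for KO clones (upper point of each pair) and WT clones (lower point). Filled points have an adjusted p under 0.05; FN1 stands at -2.89 in KO and -3.65 in WT clones, and FBLN5 is open in both.

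The order of the members differed between the conditions. Without 4-OHT, FN1 was the highest in RPKM over gene span, with 97.7 ± 10.2 in KO clones and 139 ± 2.96 in WT clones (mean ± SD, n = 2). FBLN1 stood at 20.9 ± 0.567 RPKM in KO clones and 16.2 ± 3.85 in WT clones, and FBN1 at 20.5 ± 1.79 in KO clones and 16.5 ± 0.512 in WT clones, so that these neighbours in the order did not differ beyond their spread. With 4-OHT FN1 stood at 12.3 ± 0.0316 in KO clones and 10.1 ± 0.0841 in WT clones, close to FBLN1 at 11.6 ± 0.0100 in KO clones and 11.5 ± 0.398 in WT clones. The ratio of FBLN1 to FN1 was 0.948 and 0.946 in KO clones with 4-OHT against 0.203 and 0.226 without it. In WT clones it was 1.15 and 1.11 with 4-OHT against 0.0986 and 0.134 without it. FBN1 stood at 3.10 ± 0.140 RPKM in KO clones and 2.09 ± 0.0498 in WT clones with 4-OHT. FBLN2 was above FBN1 with 4-OHT, at 5.66 ± 1.13 RPKM in KO clones and 4.26 ± 1.18 in WT clones. Without 4-OHT it was below FBN1, at 15.1 ± 0.0410 RPKM in KO clones and 12.6 ± 2.38 in WT clones. Since RPKM here counts introns in the length, levels of different genes compare footprints per kilobase of gene span, not of coding sequence.

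The next question was whether KO clones differed from WT clones in these genes. No member was called by limma-trend in either condition. With 4-OHT, the KO libraries lay apart from the WT libraries for 4 of the 7 tested members, with FN1, FBN1 and EFEMP1 higher and FBN2 lower in KO clones. Libraries of the 2 genotypes lay apart for 37.6% of the 7758 tested genes in that condition. FBN1 had a log2 difference of 0.41 (95% interval -0.23 to 1.05), FN1 of 0.26 (-0.27 to 0.79) and FBN2 of -0.26 (-0.54 to 0.01). EFEMP1 differed by 0.23 (0.01 to 0.46) with an unadjusted p of 0.0465 and an adjusted p of 0.822, a value that includes the WT library with 1 read. The fit called 0 of 7758 genes (0%), with 365 genes (4.7%) and 1 member at an unadjusted p under 0.05. Limma-voom called 54 genes (0.696%) and 0 members. Without KO clone 69 with 4-OHT, which leaves the shallow clone 66 as the only KO library, limma-trend called 904 genes, 0 of them members.

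Without 4-OHT, 6 of the 7 tested members had KO and WT libraries that did not overlap, against 39.5% of the 8159 tested genes. FBN1, FBLN1, FBLN2 and EFEMP1 were higher and FN1 and FBN2 lower in KO clones. FN1 differed by -0.51 (95% interval -0.90 to -0.11, unadjusted p = 0.0208, adjusted p = 0.573) and FBN2 by -0.50 (-0.98 to -0.03, unadjusted p = 0.0406, adjusted p = 0.582). EFEMP1 differed by 0.50 (-0.01 to 1.02, adjusted p = 0.608), FBLN1 by 0.36 (-0.15 to 0.88) and FBN1 by 0.30 (-0.12 to 0.71). Limma-trend called 0 of 8159 genes (0%), with 687 genes (8.42%) and 2 members at an unadjusted p under 0.05. Limma-voom called 65 genes (0.797%), among them FN1 at -0.52 (adjusted p = 0.0105) and FBN2 at -0.93 (adjusted p = 0.014), both lower in KO clones. FBN2 was lower in KO clones in every library of both conditions, at 0.263 ± 0.0162 RPKM against 0.515 ± 0.0282 in WT clones with 4-OHT, and at 1.00 ± 0.260 RPKM against 1.83 ± 0.236 without it.

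**Figure D4:**
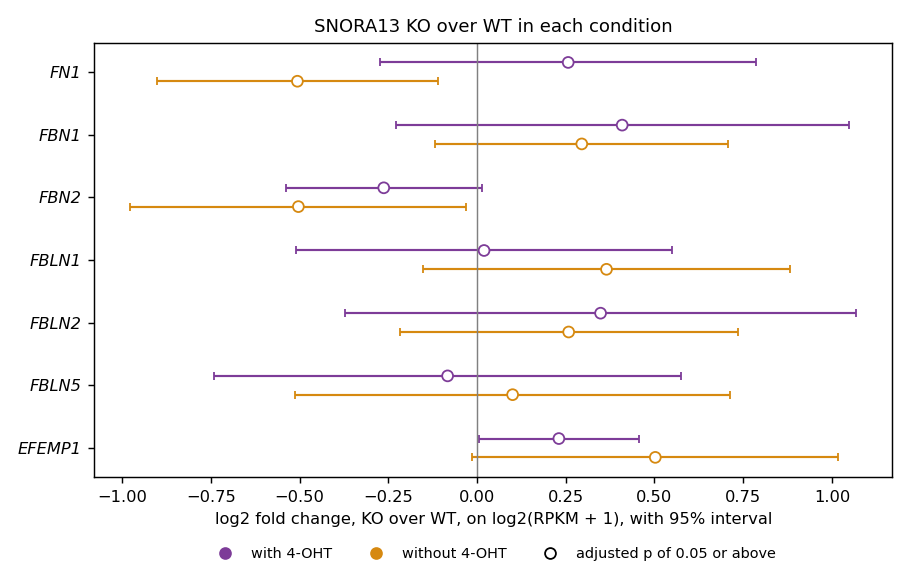
Log2 fold change of KO over WT clones for each tested member, on log2(RPKM + 1), with 95% intervals from limma-trend, with 4-OHT (upper point of each pair) and without it (lower point). All points are open because no adjusted p was under 0.05; FN1 lies at 0.26 with 4-OHT and at -0.51 without it.

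Whether the change with 4-OHT differed between KO and WT clones was tested as an interaction. By limma-trend FN1 had the largest value of the members, 0.76 (95% interval 0.22 to 1.30), which is a smaller fall in KO clones, with an unadjusted p of 0.0118 and an adjusted p of 0.859. By limma-voom it was 0.80 (adjusted p = 0.143), and by limma-voom with the clone as a block 0.83 (adjusted p = 0.0137), the only alternative of 14 in which FN1 passed. The intervals of the other 6 members included 0, from FBLN1 at -0.35 (-1.004 to 0.31) to FBN2 at 0.24 (-0.30 to 0.79). This log2(RPKM + 1) scale shrinks changes of low values, and for EFEMP1 and FBN2 the sign was opposite to that of the folds in mean RPKM. EFEMP1, at -0.27 here, fell 10.3-fold in KO and 18.6-fold in WT clones by mean RPKM, with 1 read in WT clone 54 with 4-OHT. FBN2 fell 3.82-fold in KO and 3.56-fold in WT clones. Over all 8774 genes limma-trend called 0 (0%), with 451 genes (5.14%) and 1 member at an unadjusted p under 0.05, and limma-voom called 4 (0.0456%). With the clone as a block limma-voom called 13 genes (0.148%).

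Genes of the same pathway outside the set were described from 3 lists. Of 22 elastic fibre and microfibril partners, 14 were tested. In KO clones 6 fell and 3 rose with 4-OHT (median log2 change -0.30, against 0.05 over all genes), and in WT clones 6 fell and 1 rose (median -0.32, against 0.06). Over all tested genes 10.6% fell and 17.1% rose in KO clones, and 8.06% fell and 13.5% rose in WT clones, so the numbers of partners that rose were near or under the background. MFAP4, a microfibril-associated glycoprotein, had 0 RPKM in KO clone 66 and 2.68 in KO clone 69 with 4-OHT, against 16.3 and 21.4 without it. In WT clones MFAP4 had 1.72 RPKM in clone 15 and 2.23 in clone 54 with 4-OHT, against 31.1 and 84.2 without it. MFAP4 fell by 3.36 ± 0.64 (SE) in KO clones (adjusted p = 0.00885) and by 4.14 ± 0.64 in WT clones (adjusted p = 0.00457). Its levels with 4-OHT rest on few reads, 0 in KO clone 66, 10 in KO clone 69, 11 in WT clone 15 and 5 in WT clone 54.

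LOX, the lysyl oxidase that crosslinks elastin and collagen, averaged 26.5 ± 1.85 RPKM in KO clones with 4-OHT and 105 ± 3.07 without it (SD, n = 2), and 18.3 ± 0.576 in WT clones with 4-OHT and 52.7 ± 4.24 without it. It fell by 1.95 ± 0.16 (SE) in KO clones (adjusted p = 0.000461) and by 1.47 ± 0.16 in WT clones (adjusted p = 0.00134). ADAMTSL4, a secreted protein that binds fibrillin-1, fell by 1.79 in KO clones and by 1.24 in WT clones. With 4-OHT it had 0 reads in KO clone 66, 10 in KO clone 69, 29 in WT clone 15 and 8 in WT clone 54. FKBP10, a prolyl isomerase of the endoplasmic reticulum that binds newly made collagen and elastin, fell by 1.03 in KO clones and by 0.77 in WT clones. FURIN, a protease that processes profibrillin, rose by 1.1 in KO clones. In WT clones it rose by 0.88 and was not called (adjusted p = 0.0933). The WT calls of ADAMTSL4 and FKBP10 and the KO call of FURIN were lost with the clone as a block (adjusted p = 0.0571 for ADAMTSL4, 0.0576 for FKBP10 and 0.0517 for FURIN). LTBP1, a fibrillin-binding protein that stores latent TGF-beta and is named after its values were seen, rose by 0.76 in KO clones and by 0.50 in WT clones, at 0.894 ± 0.200 RPKM with 4-OHT against 0.112 ± 0.0251 without it in KO clones. With the clone as a block 5 partners fell and 1 rose in KO clones, and 3 fell and 1 rose in WT clones. Over all 8774 genes the block fit called 773 lower and 1231 higher in KO clones, and 577 lower and 978 higher in WT clones. Leaving out any 1 WT library left 2 partners called lower and 0 higher, and leaving out any 1 KO library left between 3 and 6 lower and between 1 and 4 higher.

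Of 12 fibronectin receptors and assembly factors, 10 were tested, and they moved both ways. ITGB1, the partner chain of the main fibronectin receptor, was not listed in either condition. In KO clones 4 fell and 2 rose with 4-OHT (median log2 change -0.18), and in WT clones 3 fell and 2 rose (median -0.28). The background was 10.6% lower and 17.1% higher in KO clones and 8.06% lower and 13.5% higher in WT clones, and the 2 of 10 that rose were near it. ITGA5, the alpha chain of the main fibronectin receptor, averaged 50.5 ± 14.1 RPKM with 4-OHT and 15.5 ± 4.20 without it in KO clones. It rose there by 1.64 ± 0.25 (SE, adjusted p = 0.00406). In WT clones ITGA5 averaged 33.96 ± 1.29 RPKM with 4-OHT and 19.3 ± 1.05 without it. There it rose by 0.79 and was not called (adjusted p = 0.0677), and the interaction was not called either (adjusted p = 0.859).

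ILK, a pseudokinase that links integrins to actin, averaged 98.4 ± 14.01 RPKM with 4-OHT and 38.4 ± 4.64 without it in KO clones, and 104 ± 9.02 with it and 43.2 ± 4.52 without it in WT clones. It rose by 1.33 in KO clones and by 1.24 in WT clones. ITGAV, the alpha chain of further fibronectin and fibrillin receptors, fell by 0.97 in KO clones and by 1.2 in WT clones. The integrin activators FERMT2 (kindlin-2) and TLN1 (talin-1) fell too, FERMT2 by 1.28 in KO clones and 1.33 in WT clones, and TLN1 by 0.86 in KO clones and 1.17 in WT clones. Without KO clone 66 lacking 4-OHT, 0 of these genes were called lower in KO clones. With the clone as a block 4 fell and 2 rose in KO clones, and 3 fell and 1 rose in WT clones. That fit called 773 of 8774 genes lower and 1231 higher in KO clones, and 577 lower and 978 higher in WT clones.

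Of 13 proteases that can degrade elastin or fibronectin, 7 were tested, and 2 rose and 1 fell with 4-OHT in each genotype (median log2 change -0.0001 in KO and -0.10 in WT clones). Over all tested genes 10.6% were lower and 17.1% higher in KO clones, and 8.06% lower and 13.5% higher in WT clones. With 7 genes tested, the counts are too small to be set apart from these shares. PLAU, the urokinase that activates plasminogen, averaged 425 ± 57.2 RPKM with 4-OHT and 16.4 ± 1.62 without it in KO clones, and 404 ± 75.9 with it and 11.9 ± 0.165 without it in WT clones. It rose by 4.61 ± 0.20 (SE) in KO clones (adjusted p = 6.45e-05) and by 4.95 ± 0.20 in WT clones (adjusted p = 5.96e-05). CTSL, the cysteine protease cathepsin L, rose by 0.83 in KO clones and by 1.23 in WT clones. MMP3, stromelysin-1, averaged 4.17 ± 0.739 RPKM with 4-OHT and 18.9 ± 4.27 without it in KO clones, where it fell by 1.94. In WT clones MMP3 averaged 7.30 ± 4.49 RPKM with 4-OHT and 8.41 ± 1.13 without it and was not called. MMP2, gelatinase A, fell by 0.77 in WT clones, a call that was lost with the clone as a block (adjusted p = 0.0743). In KO clones MMP2 fell by 0.62 and was not called (adjusted p = 0.0654). With the clone as a block 2 proteases fell and 2 rose in KO clones, and 0 fell and 2 rose in WT clones. Beside them, 773 of 8774 genes were lower and 1231 higher in KO clones by that fit, and 577 lower and 978 higher in WT clones. MMP9, MMP14 and ELANE were not listed.

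**Figure D5:**
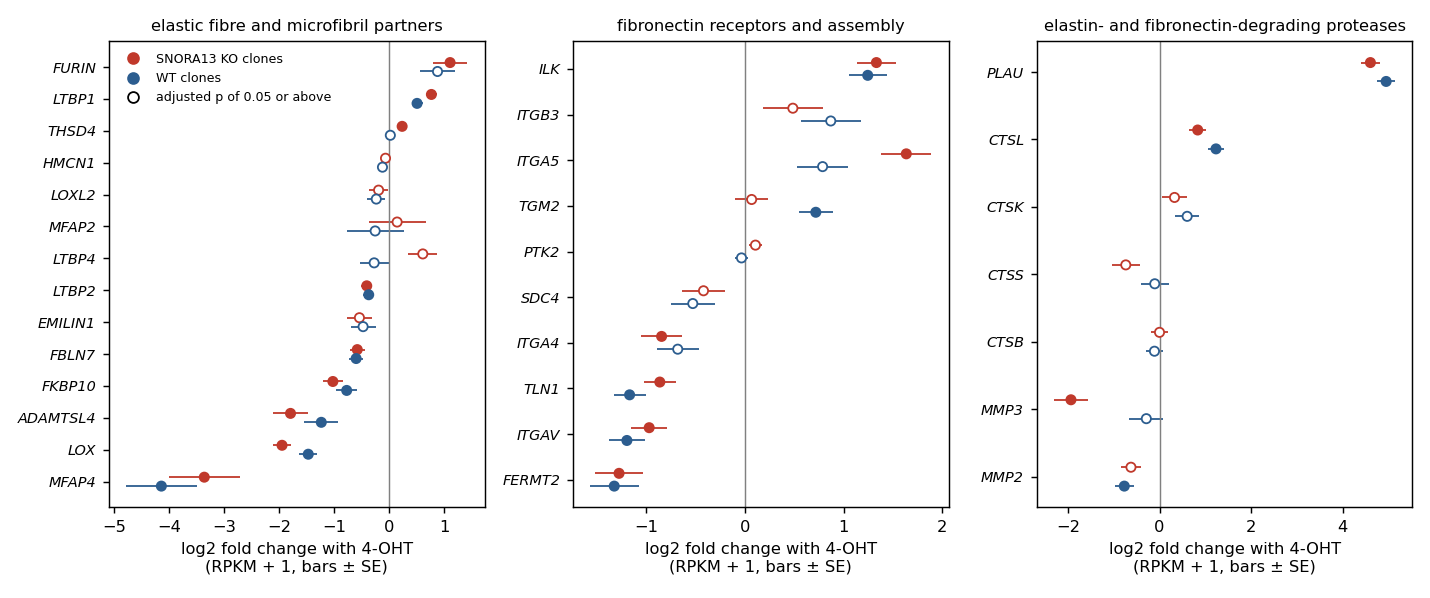
Log2 fold change with 4-OHT over none, on log2(RPKM + 1), for every tested gene of the 3 lists, with bars of 1 SE, for KO clones (upper points) and WT clones (lower points). Filled points have an adjusted p under 0.05; PLAU lies at 4.61 in KO and 4.95 in WT clones and MFAP4 at -3.36 in KO and -4.14 in WT clones.

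Between genotypes limma-trend called 0 genes of the 3 lists in either condition and 0 in the interaction. With 4-OHT, 14 partners, 10 receptor genes and 6 proteases were tested. Of these, 1 gene had an unadjusted p under 0.05, TGM2, a crosslinking enzyme that also binds fibronectin. That was so for 4.7% of all tested genes. Limma-voom called TGM2 lower in KO clones (log2 -1.11, adjusted p = 0.00193), where it called 0.696% of all genes in either direction. Without 4-OHT, 14 partners, 10 receptor genes and 7 proteases were tested. Of these, 3 partners (FKBP10, LOX and MFAP4), 0 receptor genes and 2 proteases (MMP3 and PLAU) had an unadjusted p under 0.05. The share over all tested genes was 8.42%. Limma-voom called LOX (0.99, adjusted p = 0.000538) and MMP3 (1.16, adjusted p = 0.0271) higher in KO clones. It called 0.797% of all tested genes there in either direction. In the interaction 2 of 14 partners, 2 of 10 receptor genes and 1 of 7 proteases had an unadjusted p under 0.05, against 5.14% of all genes. Limma-voom called 0 of the lists, against 0.0456% of all genes.

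The genes whose profiles lay nearest to those of FN1 and FBN1 were found among all 8774 tested genes, by the root mean square difference of log2(RPKM + 1) values centred per gene over the 8 libraries. Nearest to FN1 were CPA4, a carboxypeptidase (0.22), OLR1, a scavenger receptor for oxidised lipoprotein (0.22), and ID2, an inhibitor of basic helix-loop-helix factors (0.28). CPA4 and OLR1 were listed at 0 in both KO clones with 4-OHT and stood at 9.97 ± 0.753 and 6.10 ± 0.556 RPKM in KO clones without it. In WT clones CPA4 stood at 0.111 ± 0.0755 RPKM with 4-OHT and 13.3 ± 0.144 without it, and OLR1 at 0.144 ± 0.143 and 11.9 ± 0.465. FN1 averaged 12.3 RPKM in KO clones and 10.1 in WT clones with 4-OHT, far above both. The log2(RPKM + 1) scale shrinks changes of low values, so nearness to FN1 on it is not likeness in fold change. Nearest to FBN1 were 3 genes of secreted matrix proteins, NID2, a basement membrane nidogen (0.14), COL5A2, a chain of type V collagen (0.17), and COL12A1, the chain of type XII collagen (0.18). COL5A2 stood at 2.39 ± 0.0188 RPKM with 4-OHT and 16.7 ± 1.47 without it in KO clones, and at 2.34 ± 0.221 with it and 14.4 ± 0.724 without it in WT clones. NID2 stood at 2.75 ± 0.362 RPKM with 4-OHT and 18.6 ± 0.588 without it in KO clones, and at 1.47 ± 0.512 with it and 15.1 ± 1.58 without it in WT clones. The likeness is a description over 8 libraries in 4 groups. ELN was not tested, so no nearest gene was sought for it.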

How the data were processed

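Footprint libraries of 8 samples were analysed from 2 tables, one per 4-OHT condition. Per the submitters' processing notes, the authors used STAR and GRCh38; for versions, counter and annotation nothing is given in the sources used here. The deposited values were taken as RPKM made by the authors, a unit read from the numbers: value times gene span, introns included, gave similar sums across libraries (1012134 to 1019244), with spans from RefSeq GRCh38.p14. Spans were found for all but 104 (without 4-OHT) and 103 (with 4-OHT) genes. Low values times span came in steps, which gave whole reads and depth. Between 77.3% and 82.1% of low values lay within 0.1 of a whole read, so recovered reads are approximate. No sample column was left unused.

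Genes reaching 10 recovered reads in 2 or more libraries were tested on log2(RPKM + 1) with limma-trend (limma 3.58.1, R 4.3.3), two-sided, with Benjamini-Hochberg adjustment, a threshold of 0.05 and no minimum fold. Changes with 4-OHT and the interaction were fitted on all 8 libraries over shared genes (4 residual degrees of freedom), and genotype differences within each table (2 residual degrees of freedom), following an earlier analysis of these tables. Exact permutation of 2 against 2 libraries (3 splits) cannot go below a p of 0.333, so no such test was used. The labels do not say whether the clones were grown as separate experiments. The p-values measure only the spread between the 2 clones of a group, with 1 library each. Clone differences and technical spread cannot be told apart in it. Clones pair the libraries of a genotype by label. Their differences correlated across the conditions by 0.0077 (KO) and 0.143 (WT) over 8774 genes.

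The members and lists were chosen with earlier results of these data known. Named genes were all members, up to 4 called genes of largest change per list and comparison, and the 3 nearest genes of FN1, FBN1 and ELN. Others are marked as named after their values were seen. Alternatives were a pseudocount of 0.1, no filter, median-ratio scaling, limma-voom on recovered reads, other libraries in the fit, the clone as a block, each library left out and, added after the data were seen, limma-voom with that block. The scripts were tested on simulated data. Intervals of log2 changes come from limma-trend and the spread between libraries. The interval of the EFEMP1 read ratio and the floors (3 reads) cover counting error only, since PCR copies are no independent molecules.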

Additional observations from a re-analysis of the deposited data

Results flagged for a closer look

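FN1 was the 1 member for which every KO library lay on one side of the WT libraries in one condition and on the other side in the other. The share of all genes with such a crossing was not computed. Libraries of the genotypes lay apart, in either direction, for 37.6% of tested genes with 4-OHT and 39.5% without it. With 4-OHT its log2 difference of KO over WT was 0.257, from 12.3 and 12.3 RPKM in KO clones against 10.2 and 10.1 RPKM in WT clones. Without 4-OHT it was -0.5061, from 105 and 90.5 RPKM in KO clones against 137 and 141 RPKM in WT clones. The test of the difference between the conditions, the interaction, gave 0.76 with an adjusted p of 0.859 by limma-trend, 0.143 by limma-voom and 0.0137 by limma-voom with the clone as a block. Groups of 2 libraries were too small for a test of single outlying libraries.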

How the results depend on the processing

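Genes called with 4-OHT numbered 2425 in KO and 1888 in WT clones. In KO clones the count was 1273 with the 4 KO libraries alone and 1103 to 3487 without 1 library (4 to 6 members), and in WT clones 2963 by limma-voom, 3039 by limma-voom with the clone as a block and 802 to 1068 without 1 library (3 to 5 members). Median-ratio scaling gave 1002 higher and 1330 lower in KO clones against 1496 and 929 as deposited, and 809 and 959 in WT clones against 1181 and 707. With the replicate block 2004 genes were called in KO clones, 1555 in WT clones and 0 in the interaction, with 5, 5 and 0 members; among member calls it changed 1, FBLN1 in KO clones. No paired analysis was possible between genotypes because their clones differ. KO against WT with 4-OHT gave 54 genes by limma-voom and 0 to 904 without 1 library. Without 4-OHT it gave 65 by limma-voom (2 members), 3 with all 8 libraries and 0 to 6 without 1 library. The interaction gave 4 by limma-voom, 13 by limma-voom with the block (1 member, FN1) and 0 to 2 without 1 library. No member with a called change reversed. Of the uncalled log2 values, KO against WT with 4-OHT reversed for FBLN1 with median-ratio scaling (-0.0125) and, without 1 library, ranged from -0.01275 to 0.05248 for FBLN1 and from -0.1824 to 0.0167 for FBLN5. Without 4-OHT FBLN5 ranged from -0.1991 to 0.3997. Interaction values reversed by limma-voom for FBN2 (-0.06662), FBLN2 (-0.04232; -0.06494 with the block) and EFEMP1 (0.7258; 0.6154 with the block), and for EFEMP1 with a pseudocount of 0.1 (0.354). Without 1 library they ranged from -0.1412 to 0.3211 for FBLN2 and from -0.4825 to 0.1162 for FBLN5. The cause was not tested. Levels per coding kilobase were not run, as no coding lengths were at hand. Among the tested members, depth limits EFEMP1 and FBN2 with 4-OHT most. Of the partners named, MFAP4 and ADAMTSL4 also had few reads with 4-OHT.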
